A study of Rattus norvegicus with 8 samples.

Results

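The arrestin family of the rat hippocampus was followed through 7 genes: the alpha-arrestins Arrdc1, Arrdc2, Arrdc3 and Arrdc4, the related Txnip, and the beta-arrestins Arrb1 and Arrb2. They were taken by gene symbol from the authors' deposited table of vehicle against corticosterone (CORT), and each of the 7 genes has 1 transcript there, so 7 of 16266 transcripts, or 7 of 13272 gene symbols, are described. The table comes from RNAseq of whole hippocampi of adult adrenalectomized (ADX) rats, 4 per group. Both groups had lost their adrenal glands and with them endogenous corticosterone, recovered for 5 d on low-dose corticosterone in the drinking solution, and had this removed 12 h before the experiment. The Vehicle group then received 0.45% saline, for which no cyclodextrin is listed. The CORT group received corticosterone-2-hydroxypropyl-β-cyclodextrin at 0.75 mg/mL in the same 0.45% saline. Each was given by jugular vein for 30 min from zeitgeber time (ZT) 2. The study's methods place tissue collection at ZT 4, 2 h after the infusion began, but the labels put it at ZT 2. By the labels the animals were Sprague-Dawley rats of 3 to 4 months, and by the methods male Lister hooded rats of 9 to 11 wk. The titles call the Vehicle samples untreated, although their treatment field gives saline.

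The deposited table holds 1 FPKM value per group (fragments per kilobase per unit of sequencing depth, a level that takes transcript length and library size into account). No value of a single rat is in it, so no spread between rats and no depth per library can be given. The table also carries columns of the authors' own test between the groups, which were not used, and no test was run here: every difference below is one between 2 group values with no replicate check. The ratio is CORT over Vehicle, without a pseudocount, and a change of at least 1.5-fold was used to describe size. The hippocampal neuron markers Slc17a7 (736 and 794 FPKM with Vehicle and CORT), Camk2a (593 and 667), Wfs1 (106 and 114) and Prox1 (10.9 and 8.96) were present in both groups. All 12 of the glucocorticoid-responsive genes listed for reference, among them Per1, Sgk1 and Fkbp5, were at least 1.5-fold higher with CORT, with a median log2 ratio of 0.93. With a pseudocount of 1 FPKM added to both values 11 of them were, without Klf9. That list was assembled with earlier results of these data known and is no independent evidence of its direction.

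Arrestins share a folded core with which they bind membrane proteins. Beta-arrestins attach to activated G protein-coupled receptors, end their signalling and pass them to clathrin for uptake. Alpha-arrestins are adaptors that carry short PPxY motifs for ubiquitin ligases of the Nedd4 family, and so direct receptors, channels and transporters to ubiquitination and internalisation. Txnip is an alpha-arrestin that also binds and inhibits thioredoxin and promotes removal of glucose transporters from the cell surface; its transcription follows glucose supply through the transcription factors MondoA (Mlxip) and ChREBP (Mlxipl) with their partner Mlx.

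The promoter sequences of Arrdc2, Arrdc3 and Arrdc4 are shown because Arrdc2 and Arrdc3 had the highest ratios of CORT over Vehicle in the family and Arrdc4 had the most motif matches. They come from RefSeq on the GRCr8 assembly, which is not the rn6 assembly of the deposited table, and run from 250 bases before to 50 bases after the start of the gene, 5′ to 3′ on the gene's strand. Of the 7 genes, 4 (Arrdc1, Arrdc2, Arrdc3 and Arrdc4) matched a promoter by symbol. Capitals mark matches on either strand to the CCAAT box (CCAAT) or the E-box (CACGTG).

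Arrdc2, chr16:18635633-18635932, plus strand: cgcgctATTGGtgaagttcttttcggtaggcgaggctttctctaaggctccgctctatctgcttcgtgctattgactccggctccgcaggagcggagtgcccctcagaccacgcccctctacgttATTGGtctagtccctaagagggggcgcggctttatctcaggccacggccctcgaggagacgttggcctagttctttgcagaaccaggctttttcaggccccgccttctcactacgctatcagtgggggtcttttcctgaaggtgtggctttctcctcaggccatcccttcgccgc
Arrdc3, chr2:12872952-12873251, plus strand: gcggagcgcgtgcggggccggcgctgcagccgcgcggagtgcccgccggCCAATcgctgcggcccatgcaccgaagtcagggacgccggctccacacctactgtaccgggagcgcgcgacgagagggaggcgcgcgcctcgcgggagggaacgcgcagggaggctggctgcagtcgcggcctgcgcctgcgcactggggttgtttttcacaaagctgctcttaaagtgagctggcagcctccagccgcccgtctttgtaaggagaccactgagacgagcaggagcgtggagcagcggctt
Arrdc4, chr1:131793376-131793675, minus strand: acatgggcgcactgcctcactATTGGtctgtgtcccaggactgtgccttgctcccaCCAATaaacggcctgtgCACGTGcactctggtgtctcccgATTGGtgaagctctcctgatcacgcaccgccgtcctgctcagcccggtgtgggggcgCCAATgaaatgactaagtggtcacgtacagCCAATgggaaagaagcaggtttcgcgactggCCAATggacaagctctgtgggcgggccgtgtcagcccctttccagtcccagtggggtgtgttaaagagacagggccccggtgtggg

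The Arrdc4 window holds 6 CCAAT boxes and 1 E-box, a sequence of which MondoA and ChREBP bind pairs. Of the 33469 promoters in the table, 37.5% hold at least 1 CCAAT box, 0.675% hold 4 or more, and 6.42% hold an E-box. Arrdc2 holds 2 CCAAT boxes and Arrdc3 holds 1. The Arrdc1 window holds neither motif. The glucocorticoid half-site AGAACA was found in none of the 4 windows, on either strand, and in 20.7% of all promoters. The TATA box (TATAAA) was also found in none of the 4, against 14.2% of all promoters. GC content was 58.3% for Arrdc2, 60.0% for Arrdc4, 68.3% for Arrdc1 and 70.0% for Arrdc3, and the median of all promoters was 51.7%. These are matches of letters within a short window, and none of the motifs overlap each other.

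Arrdc2 had the ratio farthest from 1 of the 7 genes, while Txnip had the largest difference in FPKM. Its transcript ENSRNOT00000025956.6, at a locus on chromosome 16 of rn6 from 20352479 to 20356612, gave 11.8 FPKM in the Vehicle and 19.3 FPKM in the CORT group. The CORT value is thus 1.63 times the Vehicle value, a log2 ratio of 0.71, or 7.44 FPKM more. Of all 16266 transcripts, 525 (3.23%) had a ratio at least this high. Since large ratios are most frequent among low transcripts, the same was counted among the 7552 transcripts with at least 10 FPKM in both groups, a limit chosen after the data were seen. Of these, 52 (0.689%) had one as high or higher.

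Arrdc3, an adaptor known for its part in receptor trafficking and energy expenditure, came next. Its transcript ENSRNOT00000072849.2, on chromosome 2 from 8732931 to 8743069, gave 10.3 FPKM in the Vehicle and 13.6 FPKM in the CORT group. This is a ratio of 1.31 and a log2 ratio of 0.39, which lies below the 1.5-fold used here. A ratio at least this high was seen in 7.27% of all transcripts and in 136 of the 7552 with at least 10 FPKM in both groups.

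Arrdc4 and Arrdc1 are both adaptors found on vesicles that cells release. Arrdc4 (ENSRNOT00000077479.1, chromosome 1, 129766099 to 129780356) was the lowest of the 7 genes in both groups, at 3.48 FPKM for Vehicle and 3.90 FPKM for CORT, a log2 ratio of 0.16. Of all transcripts, 21.1% had a ratio at least this high. Arrdc1 (ENSRNOT00000010169.5, chromosome 3, 2129878 to 2136936) gave 8.73 FPKM for Vehicle and 8.80 FPKM for CORT. Its log2 ratio of 0.01 was the smallest of the 7 genes in absolute value and lies beside the median of 0.02 of all transcripts.

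Txnip was the highest of the 7 genes in both groups and the one gene with a lower value after CORT. Its transcript ENSRNOT00000028793.6, on chromosome 2 from 198683158 to 198686974, gave 36.6 FPKM in the Vehicle and 26.7 FPKM in the CORT group. The CORT value minus the Vehicle value was -9.96 FPKM. Relative to Vehicle the level was 27.2% lower, a log2 ratio of -0.46, which does not reach 1.5-fold. Of all transcripts, 1142 (7.02%) had a ratio at least this low, and among those with at least 10 FPKM in both groups 107 (1.42%) did.

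The beta-arrestins had similar values in both groups. Arrb2 (ENSRNOT00000026207.7, chromosome 10, 57040266 to 57048134) gave 17.3 FPKM for Vehicle and 17.8 FPKM for CORT, a log2 ratio of 0.03. Arrb1 (ENSRNOT00000043554.4, chromosome 1, 164502388 to 164593139) reached 10.04 FPKM and 11.2 FPKM, a log2 ratio of 0.16. The ratio of Arrb2 to Arrb1 was 1.73 with Vehicle and 1.59 with CORT. The table gives Arrb1 and Tpbgl the same locus, so this span covers more than one gene and reads of both may have been divided between them. Tpbgl had 0.854 FPKM for Vehicle and 0.524 FPKM for CORT. A further transcript named Arrb2-ps, a pseudogene of Arrb2, stands at 52.1 and 52.3 FPKM on chromosome 20 between 4106188 and 4125387. This locus spans 19200 bp, whereas RefSeq gives the pseudogene 978 bp on GRCr8, so it is not certain what this value measures, and how reads that match both Arrb2 and such a copy were divided was not tested, so the Arrb2 level is uncertain too.

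**Figure D1:**
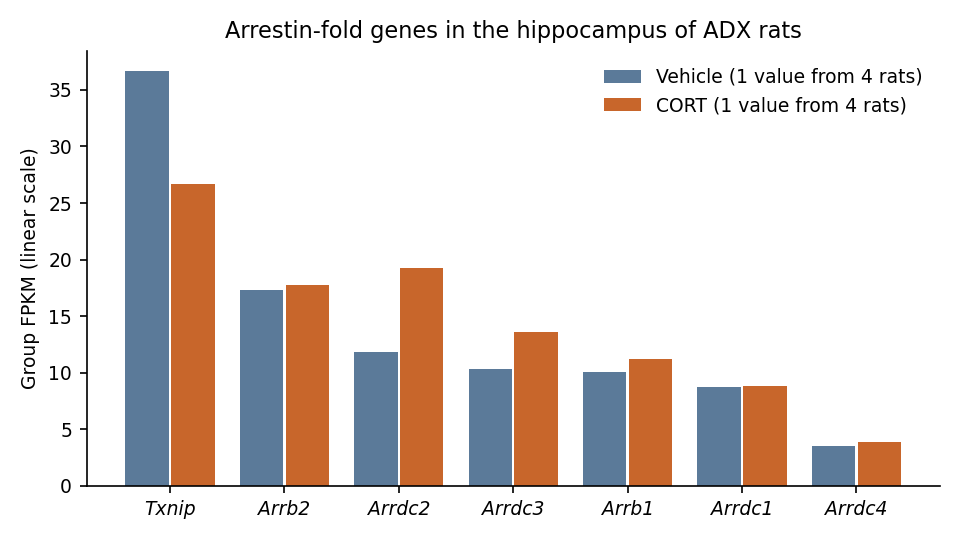
Group FPKM (linear scale) of the 7 arrestin genes in the hippocampus, ordered by the Vehicle value, with 1 bar for Vehicle and 1 for CORT, each a single deposited value from 4 rats and therefore without an error bar. Arrdc2 goes from 11.8 to 19.3 FPKM and Txnip from 36.6 to 26.7 FPKM, and the bars of Arrb2 and Arrdc1 are nearly equal.

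In total, 1 of the 7 transcripts, Arrdc2, was at least 1.5-fold higher with CORT, against 4.21% of all transcripts in the table. None of the 7 was at least 1.5-fold lower, against 4.91% of all transcripts. Among transcripts with at least 10 FPKM in both groups, 0.993% were at least 1.5-fold higher and 0.900% at least 1.5-fold lower. Arrdc1 and Arrdc4 lie under this limit and are not among those transcripts. With so few genes, a count of 1 in 7 says little about the family beyond Arrdc2 itself. The CORT value was the higher one for 6 of the 7 genes, or for 5 when centred on the median of all transcripts, where Arrdc1 turned to -0.010. Of all transcripts, 52.5% had a ratio at least that of Arrdc1, the lowest of the 6, so most of the table was higher with CORT too. The median log2 ratio of the 7 was 0.16, with quartiles of all transcripts at -0.11 and 0.14.

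**Figure D2:**
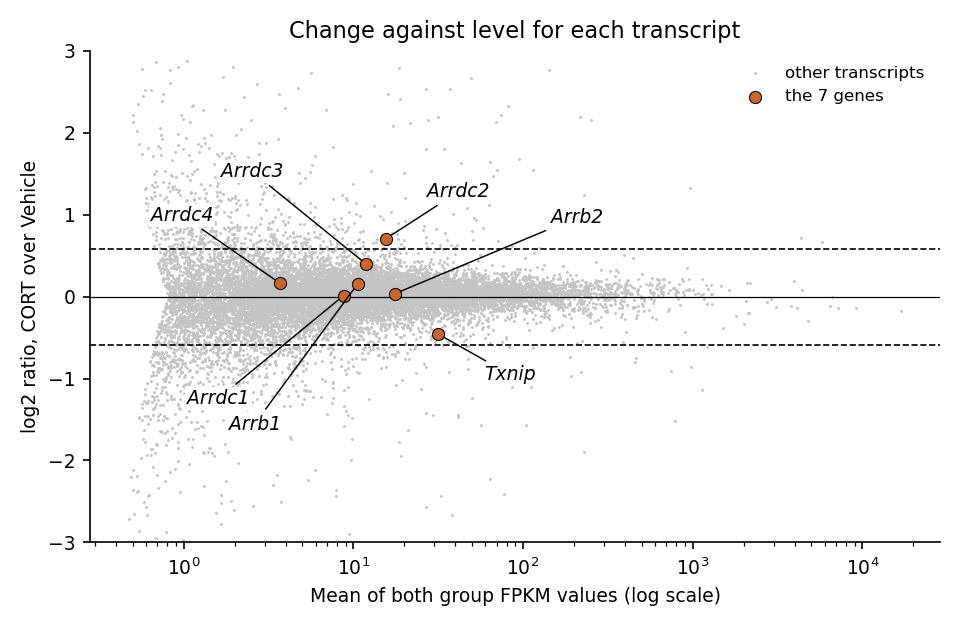
Log2 ratio of CORT over Vehicle against the mean of both group FPKM values (log scale) for the transcripts of the table, with the 7 arrestin genes named and dashed lines at 1.5-fold, leaving out 78 transcripts with a log2 ratio beyond 3 in either direction. Arrdc2, at 0.71, lies above the upper line, Txnip, at -0.46, lies between 0 and the lower line, and the scatter of the other transcripts narrows as the level rises.

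The rank order of the family differed between the groups at a single place. With Vehicle it ran Txnip, Arrb2, Arrdc2, Arrdc3, Arrb1, Arrdc1 and Arrdc4, and with CORT Arrdc2 stood above Arrb2. Without values of single rats it cannot be said which neighbours in this order differ beyond their spread. Txnip stood at 3.10 times the level of Arrdc2 with Vehicle and at 1.39 times with CORT. The 4 Arrdc genes together summed to 34.3 FPKM for Vehicle and 45.5 FPKM for CORT, a ratio of 1.33. With Txnip added, the sum of the alpha-arrestins was 71.0 FPKM for Vehicle and 72.2 FPKM for CORT. The share of Txnip in this sum was 51.6% with Vehicle and 36.9% with CORT, and that of Arrdc2 was 16.6% and 26.7%. The total of the alpha-arrestins was thus nearly equal while its makeup differed.

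**Figure D3:**
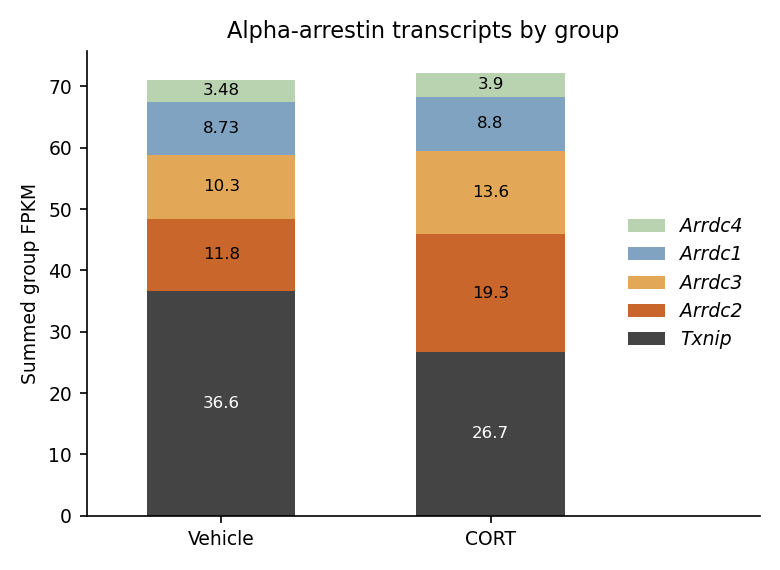
Group FPKM of the 5 alpha-arrestins stacked for Vehicle and for CORT, with each gene's FPKM printed in its segment. Both stacks reach nearly the same height, 71.0 and 72.2 FPKM, with a smaller Txnip segment and larger Arrdc2 and Arrdc3 segments in CORT.

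Of the genes listed as related to the arrestins, the glucocorticoid-responsive list aside, 1 was past 1.5-fold. This was Hk2, lower with CORT, from the list for glucose sensing and uptake. For these lists a gene with several transcripts entered with its most abundant one. On that basis 1.92% of 13272 symbols were at least 1.5-fold higher with CORT and 3.99% at least 1.5-fold lower, and the median log2 ratio was 0.02. Of the 11 ubiquitin ligases of the Nedd4 family and their adaptors, none was past 1.5-fold in either direction and their median was 0.08. The most abundant were the adaptor Ndfip1 (325 and 332 FPKM with Vehicle and CORT) and the ligase Nedd4 (121 and 117). None of the 7 genes for the ESCRT machinery, which buds and sorts vesicles and binds Arrdc1 through Tsg101, was past 1.5-fold, and their median was 0.03. Tsg101 was at 64.8 and 66.3 FPKM, and Vps4a at 64.2 and 66.5 FPKM. Of 6 further arrestin-fold genes, 3 were found, Vps26a, Vps26b and Dscr3 subunits of the retromer and retriever sorting complexes, with log2 ratios between -0.09 and 0.08.

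Genes around Txnip differed in both directions. Of the 9 genes of the thioredoxin system, none was past 1.5-fold. Their median log2 ratio was -0.07, and 0.053 with the transcripts of each symbol summed, so no direction can be given for the list. Thioredoxin itself, Txn1, the protein that Txnip binds, had 402 FPKM for Vehicle and 364 FPKM for CORT, a log2 ratio of -0.14. The peroxidase Prdx2 was at 321 and 333 FPKM. Prdx1, another peroxidase served by thioredoxin, was at 46.7 and 36.8 FPKM, and Srxn1, which reactivates peroxiredoxins, was at 5.37 and 6.73 FPKM. Of the 9 genes found of 11 listed for glucose sensing and uptake, with a median log2 ratio of 0.13, 1 was past 1.5-fold: Hk2, a hexokinase, had 3.14 FPKM for Vehicle and 1.78 FPKM for CORT, a log2 ratio of -0.82. With a pseudocount of 1 FPKM it was -0.57, just under 1.5-fold. The glucose transporter Slc2a1, a cargo of Txnip, was at 46.1 and 62.5 FPKM, a log2 ratio of 0.44. Mlxip was at 4.39 and 5.71 FPKM, Mlxipl at 3.77 and 3.13 FPKM, and Mlx at 25.7 and 28.2 FPKM. Hk1 was the most abundant of this list, at 110 FPKM for Vehicle and 122 FPKM for CORT. Slc2a1, Mlxip, Mlxipl, Mlx, Prdx1 and Srxn1 were named after their values were seen.

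The partners of the beta-arrestins described here were 14 genes for receptor kinases, an adrenergic receptor, clathrin and its adaptor AP-2. Their log2 ratios lay between -0.31 and 0.28, and none was past 1.5-fold. The median was 0.12, against 0.02 for all symbols, and 13 of the 14 were above 0. The other one was Grk4, at 1.92 and 1.55 FPKM. With the transcripts of each symbol summed, Clta turned from 0.08 to -0.05, and the median was 0.12. Of all transcripts, 52.5% had a log2 ratio at least that of Arrdc1 (0.01). The most abundant were the AP-2 subunits Ap2m1 (399 and 419 FPKM) and Ap2s1 (155 and 164). Adrbk1, the principal receptor kinase, was at 80.0 and 90.0 FPKM. It was named after its value was seen.

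Txnip and most marker lists of non-neuronal cells were lower with CORT. The median log2 ratio of all symbols, beside which the counts below stand, was 0.02. Of all transcripts, 47.5% had a log2 ratio no higher than that of Arrdc1 (0.01). In whole tissue, fewer cells of a type and less RNA per cell cannot be told apart. Of 13 endothelial markers found of 14 listed, 12 were lower with CORT, 2 of them by at least 1.5-fold (1 with a pseudocount of 1 FPKM, without Egfl7), with a median log2 ratio of -0.35 and a summed level of 139 FPKM for Vehicle and 114 FPKM for CORT. Of 11 microglial markers 10 were lower, with a median of -0.25 and a summed level of 356 and 306 FPKM for Vehicle and CORT. The remaining one, Tmem119, was the 1 microglial marker past 1.5-fold, and it was higher, at 5.72 and 11.2 FPKM. Of 9 oligodendrocyte markers 8 were lower (median -0.24, sum 5675 and 4734 FPKM), and of 8 astrocyte markers 5 (median -0.09, sum 3068 and 2668 FPKM). The lower astrocyte sum rests on Gfap, at 970 FPKM for Vehicle and 517 FPKM for CORT, and the other 7 markers summed to 2098 and 2152 FPKM. Leaving out the marker with the largest difference in FPKM turned the direction of no other of these sums. All 4 pericyte markers found were lower (median -0.26, sum 44.5 and 38.5 FPKM), as were 5 of 6 markers of meningeal fibroblasts (median -0.82, sum 110 and 82.2 FPKM). All 4 markers found of habenula and thalamus, tissue beside the hippocampus, were lower, the median was -1.93 (-1.11 with a pseudocount of 1 FPKM), and their summed level was 13.2 FPKM for Vehicle and 4.24 FPKM for CORT. Of 7 markers of choroid plexus 5 were lower (median -0.02, sum 6765 and 6752 FPKM), and of 11 markers of hippocampal neurons 3 (median 0.11, sum 3236 and 3400 FPKM). At least 1.5-fold lower were 2 astrocyte markers (Gfap and Aldh1l1), 1 oligodendrocyte, 1 pericyte, 3 meningeal fibroblast and all 4 habenula and thalamus markers. Of all symbols, 3.99% were. Aldh1l1 had a log2 ratio of -0.05 with its transcripts summed. None of the choroid plexus markers was past 1.5-fold. Zbtb20, at 1.55 and 2.72 FPKM, was the 1 neuron marker past it, and it was higher, against 1.92% of all symbols. No transcript of the table, these markers included, was at 0 in either group. The listed Pecam1, Anpep, Col1a2, Otx2 and Pou4f1 were not found in it. Arrdc2 and Arrdc3 were higher with CORT. The median of the neuron list was above 0, and that of each other list was below 0. The part of these cell types in the values of Txnip, Hk2, Arrdc2 and Arrdc3 was not tested.

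**Figure D4:**
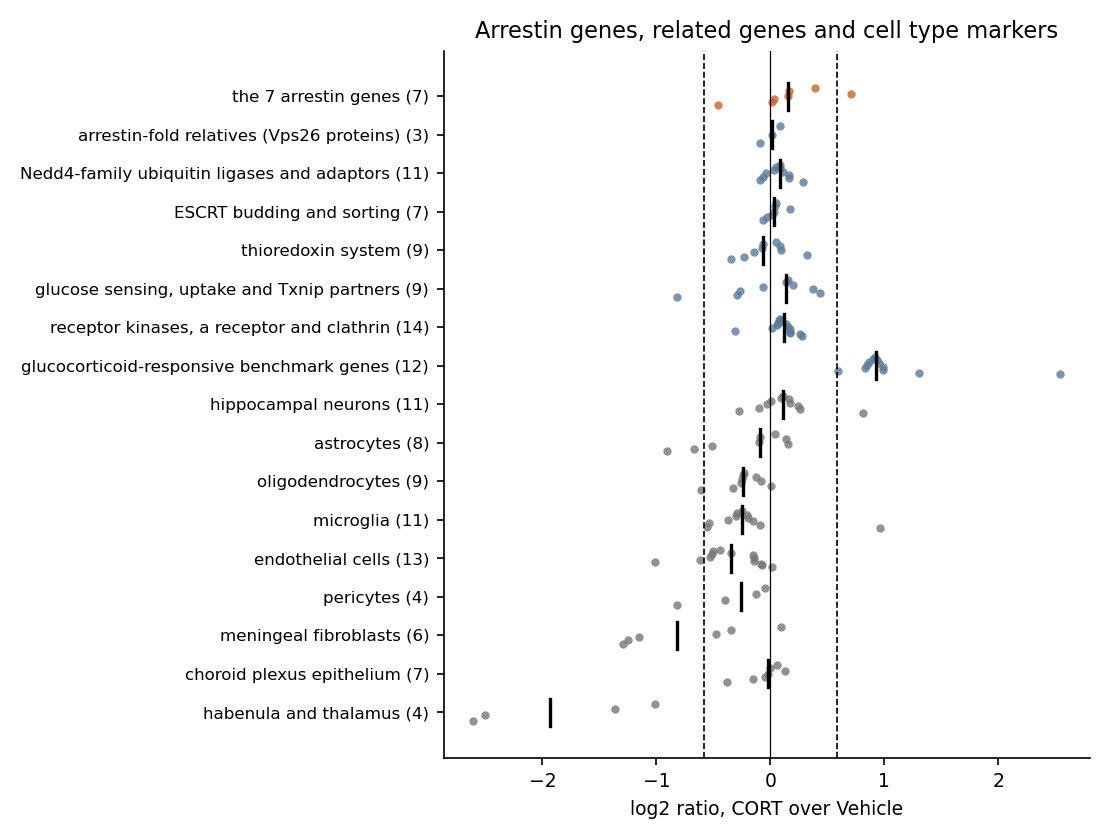
Log2 ratio of CORT over Vehicle for the 7 arrestin genes (top row), for genes related to them and a glucocorticoid-responsive reference list, and for cell type markers, 1 point per gene with the number found in brackets, a black bar at each median and dashed lines at 1.5-fold. The arrestin genes spread from -0.46 to 0.71 around a median of 0.16, the reference list has a median of 0.93, and the endothelial markers one of -0.35.

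By level and difference at once, the genes nearest to Arrdc2 were Bcl6 (11.7 and 17.4 FPKM with Vehicle and CORT), Fezf2 (12.8 and 18.1) and Gadd45g (12.7 and 17.8). Those nearest to Txnip were Gng5 (39.1 and 27.6 FPKM), Cd74 (36.3 and 24.6) and the small nucleolar RNA SNORA41 (34.9 and 28.5). Nearness was the distance in the plane of the log2 Vehicle and log2 CORT values, from 0.14 to 0.16 for the former and from 0.11 to 0.12 for the latter. It rests on 2 values per gene and was not tested.

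The nearest genes with a deposited value on each side of Arrdc2 and Txnip in rn6 were also compared, a choice made after the data were seen. Genes without a deposited value could not be seen here and may lie nearer. Beside Arrdc2, Kcnn1 ended 3675 bp before its locus and had a log2 ratio of 0.22, and Mast3 began 39232 bp after it and had one of -0.06. Polr3gl, 15612 bp after the Txnip locus, had a log2 ratio of -0.14. On its other side, 225117 bp away, Fcgr1a, a receptor of macrophages and microglia, had 4.14 FPKM for Vehicle and 1.97 FPKM for CORT. Its log2 ratio was -1.07. Both of these neighbours of Arrdc2 were thus under 1.5-fold, and so was the nearer one of Txnip. Fcgr1a, the farther one of Txnip, was more than 1.5-fold lower with CORT. Txnip was lower by less than 1.5-fold, and a link between them was not tested.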

How the data were processed

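RNA from whole hippocampi of 8 ADX rats, 4 per group, was sequenced from stranded libraries. The authors aligned the reads to rn6 and derived FPKM values per Ensembl transcript with Tophat2, Cufflinks and CuffDiff, with geometric normalization, corrections for multi-reads, bias and effective length, and a minimum alignment count of 10. The submitters' processing notes list CASAVA 1.8.2, TopHat2 2.0.10 and Cuffdiff 2.2.0. The deposited FPKM values are 1 per group, with no value of 0. The table also holds the authors' fold change, test statistic, p-value and q-value columns, which were not used. The setting for strand in the assignment of reads is not given in the sources used here.

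Log2 ratios were computed from the FPKM values, without a test, over all transcripts. Genes, 7 related lists and 9 marker lists were chosen with earlier results of these data known. Genes named from the related lists were those past 1.5-fold with at least 1 FPKM in one group and the 2 most abundant, beside those stated. A listed gene is not reported here. The computation was tested on simulated data. Python 3.11.15, numpy 2.4.6, pandas 2.3.3 and matplotlib 3.10.9 were used. Alternatives were other folds, pseudocounts, filters, centring and summing of transcripts.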

Additional observations from a re-analysis of the deposited data

How the results depend on the processing

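The log2 ratio of each of the 7 genes moved by less than 0.1 under every alternative run: by at most 0.044 with a pseudocount of 1 FPKM, 0.0047 with one of 0.1 FPKM, 0.022 when centred on the median of all transcripts, and 0 with transcripts summed per symbol. Centring and summing were no check of these ratios. Centring takes the same 0.022 from every transcript, and each of the 7 genes has 1 transcript. Filters drop transcripts and cannot change the ratio of one that stays, so they were no check either. The limit of 0.1 was set here, since no spread between rats was available. The count of genes past the fold depended on the fold: with a fold of 5/4, 2 genes (Arrdc2 and Arrdc3) were higher, against 9.54% of all transcripts, and 1 (Txnip) was lower, against 10.8%. With 2-fold, 0 were higher and 0 were lower. Under the other alternatives, including filters of 1 FPKM and of 10 FPKM, the latter chosen after the data were seen, Arrdc2 was the 1 gene at least 1.5-fold higher and 0 were lower. The filter of 10 FPKM left out Arrdc1 and Arrdc4. Among the related lists, the median of the thioredoxin system changed sign, from -0.07 to 0.053, with transcripts summed per symbol. Of its genes only Txnrd1 changed sign, from -0.23 to 0.054, and why its transcripts differ was not tested. A pseudocount of 1 FPKM left Hk2, Klf9 and the markers Egfl7, Aldh1l1 and Zbtb20 under 1.5-fold, and moved the medians of habenula and thalamus from -1.93 to -1.11 and of meningeal fibroblasts from -0.82 to -0.69. Summing transcripts moved the log2 ratio of Aldh1l1 from -0.67 to -0.05. Centring turned the log2 ratio of Arrdc1 from 0.01 to -0.010. The alternatives for the marker lists were chosen after the data were seen. Leaving out single rats and tests between groups were not run because the table has 1 value per group. No paired analysis was possible because the 4 rats of a group share 1 column. The depth of the libraries is unknown from the table.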
